A study of Mus musculus with 21 samples.

Results

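The genes described here are 9 genes that serve inhibitory transmission or identity in amacrine cells, the interneurons of the inner retina. They were chosen by name as Gad1, Gad2, Slc6a9, Slc32a1, Tfap2a, Tfap2b, Pax6, Meis2 and Calb2. They are 9 of the 17164 genes counted, and all 9 were among the 16797 genes that passed the filter on low counts. The RNA came from cells that were sorted and labelled as retinal ganglion cells, which send their axons through the optic nerve. The mice were C57BL/6, and on day 3 after a crush of that nerve the cells were taken. Guide RNAs targeted ATF3, ATF4, CEBPG or CHOP, transcription factors of the bZIP family with roles in cell stress, and a control guide was used for comparison. The sources used here do not give the vector, the source of the nuclease or the gate of the sort.

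The control group held 4 libraries with the genotype label WT control, all from male mice and batch 2 of the authors' sample sheet. The 5 ATF3 knockout, 4 CEBPG knockout and 5 CHOP knockout libraries all came from female mice and batch 3. The 2 ATF4 knockout libraries were batch 1, with 1 female and 1 male mouse in the sheet. All mice were 6 to 7 weeks old by that sheet, and all had the crush, so no uninjured retina is part of these groups. Batch therefore cannot be told apart from the knockout in any comparison with control, nor can sex for ATF3, CEBPG and CHOP. A further library, titled as a control but with the CHOP knockout as its genotype, was left out of every group.

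Amacrine cells release mainly GABA or glycine onto bipolar cells, ganglion cells and each other. GABA is made from glutamate by the decarboxylases GAD67 (Gad1) and GAD65 (Gad2), glycine is taken up by the transporter GLYT1 (Slc6a9), and the vesicular transporter VGAT (Slc32a1) loads both transmitters into synaptic vesicles. The AP-2 factors Tfap2a and Tfap2b are expressed in developing and mature amacrine cells, Pax6 is required for amacrine fates and persists in adult amacrine and ganglion cells, Meis2 is a homeodomain factor seen in GABAergic amacrine cells, and Calb2 encodes the calcium-binding protein calretinin of amacrine and some ganglion cells. Horizontal cells also use several of these genes, so none of them by itself marks a single cell type.

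The libraries held from 6401446 to 11752828 counted reads in the controls, from 25267560 to 32776378 in ATF3, from 11929692 to 12404601 in ATF4, from 9000250 to 29810987 in CEBPG and from 14272784 to 31543917 in CHOP, so the controls and ATF4 were the shallower groups. Of the targeted genes Atf3 was lower in its knockout by 1.56 on the log2 scale (adjusted p = 2.41e-05), Atf4 by 0.97 (adjusted p = 0.000211) and Ddit3, which encodes CHOP, by 0.43 (adjusted p = 0.00908), while Cebpg did not differ between the CEBPG knockout and control (log2 change -0.16, adjusted p = 0.491). The ganglion cell label was checked against 13 markers, whose summed share of counted reads ran from 0.0484% to 0.0716% over the libraries. Pou4f2, a defining ganglion cell factor, had few reads in every group. It had 0 to 33 reads in the controls, 0 to 18 in ATF3, 24 and 46 in ATF4 and 0 to 50 in CHOP, and 0 in every CEBPG library. The sheet gives ATF4 replicate 1 as female, yet it had 59.4 CPM of the Y-linked Ddx3y (CPM are read counts scaled to library size) and 0.251 CPM of Xist, and without it 8 of the 9 genes passed in ATF4 against control, in a fit where the lone ATF4 library is assumed to vary like the other groups. CEBPG replicate 6 was the shallowest library of batch 3, and it lay with control replicate 5 at the top of the sheet's first component of sequencing quality (6.12 and 7.71).

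The genes lie on 5 mouse chromosomes in the GENCODE annotation of the build mm10. Chromosome 2 holds 5 of them, namely Gad2 at 22622205 to 22693874, Gad1 at 70553072 to 70602014, Pax6 at 105668900 to 105697364 and Slc32a1 at 158610767 to 158615748 on the plus strand and Meis2 at 115863064 to 116065839 on the minus strand. Tfap2b lies on chromosome 1 (19208914 to 19238576, plus), Slc6a9 on chromosome 4 (117834506 to 117875198, plus), Calb2 on chromosome 8 (110137502 to 110168210, minus) and Tfap2a on chromosome 13 (40715302 to 40738376, minus). The 5 genes of chromosome 2 are spread over it and are not neighbours.

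Start-site sequences are shown for the pair of GABA enzymes and Pax6, the 3 genes whose levels were above every control library in all 4 knockouts. Each is 300 bases from RefSeq on GRCm38.p6, from 250 bases before to 50 after an annotated start, on the plus strand, and capitals mark matches to the motifs searched. Gad1 is at chr2:70561879-70562178, Gad2 at chr2:22622077-22622376 and Pax6, at the first of its listed starts, at chr2:105668646-105668945.
Gad1: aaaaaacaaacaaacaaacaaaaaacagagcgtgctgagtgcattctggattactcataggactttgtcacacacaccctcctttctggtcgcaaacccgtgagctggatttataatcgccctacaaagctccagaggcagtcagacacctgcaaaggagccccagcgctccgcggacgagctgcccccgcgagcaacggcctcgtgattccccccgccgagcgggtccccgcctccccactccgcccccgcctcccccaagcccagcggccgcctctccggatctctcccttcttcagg
Gad2: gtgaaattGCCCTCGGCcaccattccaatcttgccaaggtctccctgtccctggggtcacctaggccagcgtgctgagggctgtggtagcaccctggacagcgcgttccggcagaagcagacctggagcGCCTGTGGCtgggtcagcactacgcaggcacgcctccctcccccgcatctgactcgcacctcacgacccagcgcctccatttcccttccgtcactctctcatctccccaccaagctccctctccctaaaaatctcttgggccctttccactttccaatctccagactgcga
Pax6: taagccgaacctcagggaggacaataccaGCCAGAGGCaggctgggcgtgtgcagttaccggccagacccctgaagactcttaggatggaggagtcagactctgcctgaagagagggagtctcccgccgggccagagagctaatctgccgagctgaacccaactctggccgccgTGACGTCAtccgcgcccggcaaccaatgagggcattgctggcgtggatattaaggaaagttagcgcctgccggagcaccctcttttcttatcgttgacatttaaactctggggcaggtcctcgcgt
The search used both strands of 12 such sequences for 8 of the 9 genes, with no entry for Calb2. The AP-2 letters GCCNNNGGC were in 2 of the 12 sequences, which is near the 16.6% found over 32851 promoters of the same length. The 2 were that of Gad2, with matches at 242 and 121 bases before the start, and the first of Pax6, at 221 bases. The CRE letters TGACGTCA, the core of a cyclic AMP response element, were in 1 of the 12 sequences and in 1.79% of all promoters. That match was in Pax6 at 76 bases before the start. Neither the AP-1 letters TGANTCA (7.81% of all promoters) nor the C/EBP-ATF composite TGATGCAA (0.895%) were in any of the 12. These are matches of letters, not sites of binding, and the AP-2 and CRE letters did not overlap. Median GC content was 59.5% over the 12 sequences against 52.7% over all promoters.

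The summed share of the 9 genes in the counted reads separated the groups. It was 0.126% to 0.191% in the controls, 0.264% to 0.326% in CEBPG, 0.383% and 0.417% in ATF4, 0.444% to 0.456% in ATF3 and 0.520% to 0.585% in CHOP. No library of any group overlapped the next group in that order, and every knockout library lay above every control. Slc6a9, Gad1 and Pax6, with the highest mean CPM of the 9 in every group, weigh most in this sum. The order of the means differed by gene. Slc32a1, Tfap2a, Tfap2b and Calb2 were highest in ATF4, while Gad1, Gad2, Pax6 and Meis2 were lower in ATF4 than in CEBPG. These are bulk libraries of sorted cells, in which more or fewer amacrine cells and more or less RNA per cell cannot be told apart.

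**Figure D1:**
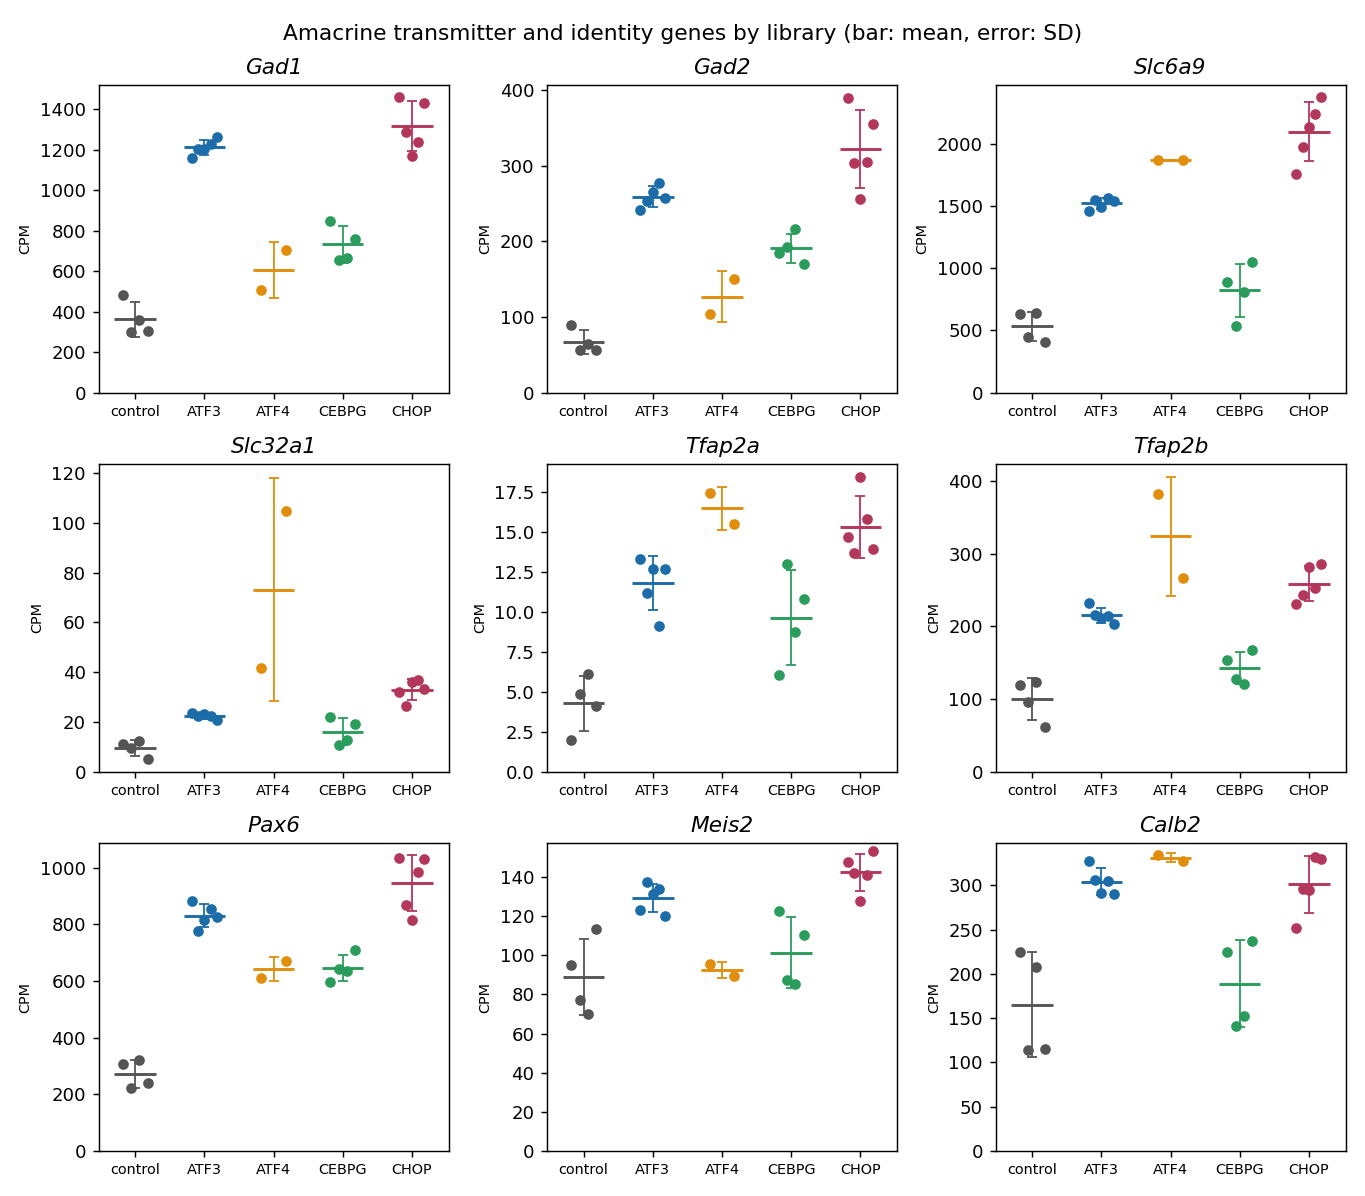
Level of each of the 9 genes in CPM (y axis, 1 panel per gene from 0) in the 20 libraries by group, with points for libraries, a bar for the group mean and an error bar for the SD. For Gad1, Gad2 and Pax6 every knockout library sits above every control, whereas for Meis2 the ATF4 and CEBPG libraries overlap the controls.

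In the comparisons with control, 9 of 9 genes were higher with ATF3 knockout and 9 of 9 with CHOP knockout by edgeR's quasi-likelihood test at an adjusted p below 0.05. With ATF4 knockout 8 of 9 were higher and with CEBPG knockout 7 of 9, and none was lower in any of the 4 comparisons. Over all genes tested, 18.6% were called higher with ATF3, 18.1% with CHOP, 16.6% with ATF4 and 18.3% with CEBPG. The median log2 change of the 9 genes was 1.47 with ATF3, 1.24 with ATF4, 0.76 with CEBPG and 1.80 with CHOP, and the median of all genes was 0.06, 0.00, 0.06 and 0.01. Every knockout library was above every control for 9 of the 9 genes with ATF3, 8 with ATF4, 3 with CEBPG and 9 with CHOP, and the same held for 18.9%, 23.7%, 14.1% and 15.4% of all genes. The 4 comparisons use the same 4 control libraries, so they are not independent of each other.

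Other retinal cell types were followed through lists of their markers, and these moved with the groups too. The 14 rod photoreceptor markers were all lower in each knockout than in control, and their summed share was 4.02% to 6.06% in the controls and 0.363% to 0.934% over all knockout libraries. With the rod genes taken out of the counts, 9 of 9 genes in ATF3, 9 of 9 in CHOP, 8 of 9 in ATF4 and 6 of 9 in CEBPG passed the test. The shares of all genes called in that fit are not given here. Taking out these genes leaves any other RNA of rods in the counts, so it does not test what part rods had. Of the 4 horizontal cell markers, 3 were lower in ATF3, CEBPG and CHOP and none was called in ATF4. Their summed share was 0.0283% to 0.0435% in the controls, 0.0170% to 0.0217% over the libraries of ATF3, CEBPG and CHOP, and 0.0396% and 0.0400% in ATF4. Lhx1, a horizontal cell factor, averaged 5.965 CPM in control, 1.475 in ATF4, 0.098 in CHOP and 0.0156 in ATF3, and was at 0 in every CEBPG library. The share of the 13 ganglion cell markers was 0.0508% to 0.0666% in the controls, 0.0660% to 0.0680% in ATF3, 0.0708% and 0.0716% in ATF4, 0.0484% to 0.0624% in CEBPG and 0.0541% to 0.0660% in CHOP. Nefl was the most abundant of them (270 CPM on average in control, 404 in ATF3) and weighs most in this share. Others fell in ATF3, such as Rbpms (22.9 CPM on average in control, 8.99 in ATF3) and Sncg (35.75 and 14.1). The median log2 change of the 13 markers in ATF3 was -1.07. Of the single markers 3 were higher and 6 lower in ATF3, and 6 and 0 in ATF4. In CEBPG 1 was higher and 4 lower, and in CHOP 2 and 3. Over all genes 16.6% to 18.6% were called higher and 14.6% to 15.4% lower in these comparisons. Whether the makeup of the sorted cells had a part in the changes of the 9 genes was not tested.

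**Figure D2:**
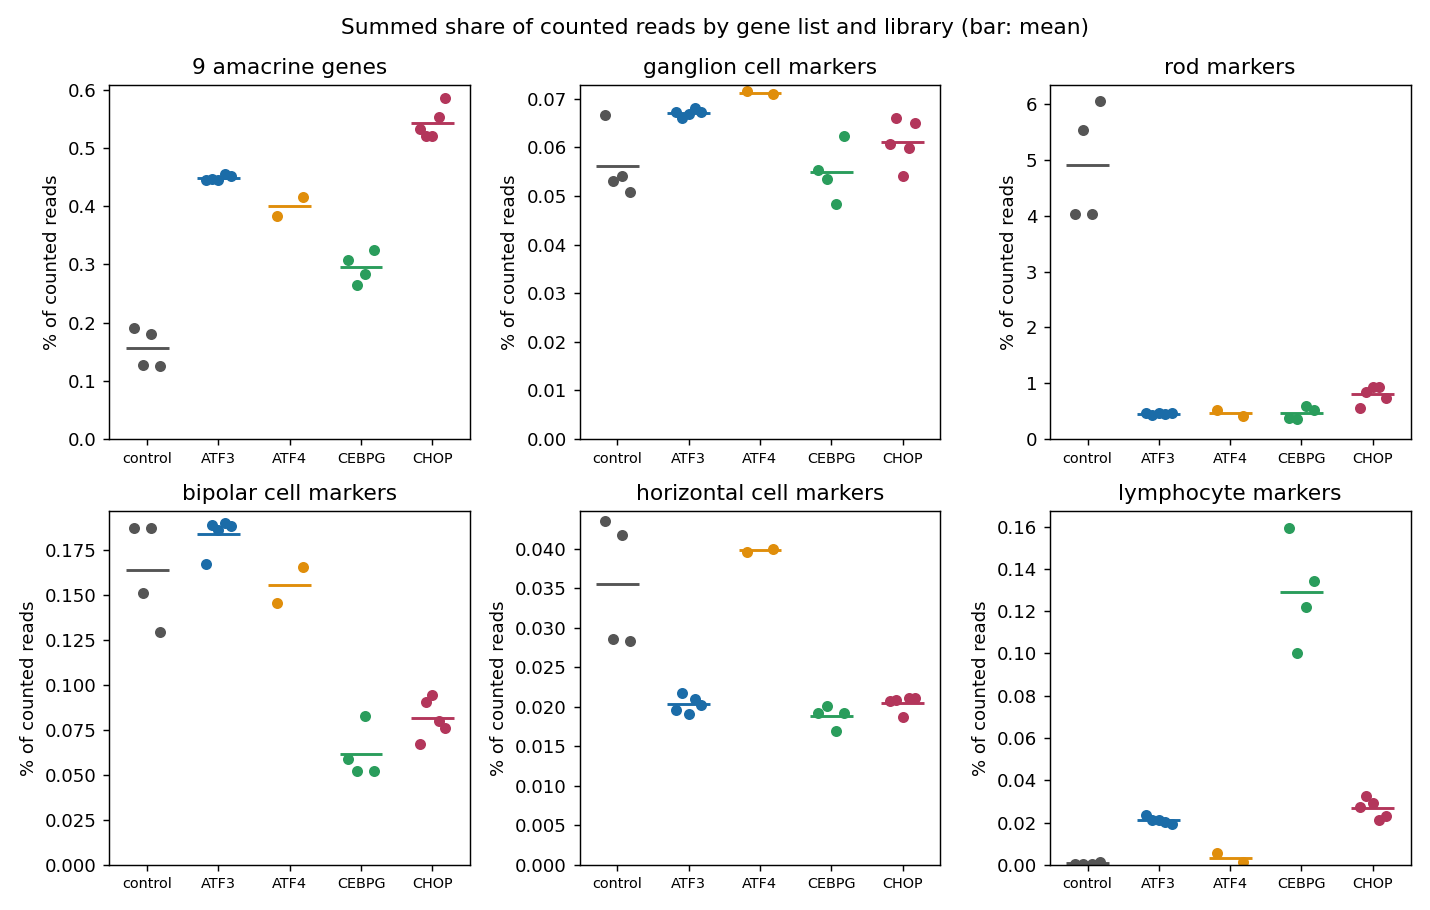
Summed share of counted reads in percent (y axis) for the 9 genes and for 5 lists of cell type markers in each library, by group, with a bar for the mean. The 9 genes rise from 0.126% to 0.191% in the controls to 0.520% to 0.585% in CHOP, the rod markers are highest in the controls, and the lymphocyte markers are highest in CEBPG (0.1002% to 0.1596%).

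Gad1, the main source of GABA in the cell body, was higher in every knockout, most in CHOP and ATF3. Its level was 481, 297, 359.8 and 306 CPM in the 4 controls. It was 1159, 1204, 1205, 1225 and 1263 CPM in the 5 ATF3 libraries and 1460.1, 1285, 1170.2, 1236 and 1428 CPM in the 5 CHOP libraries. It was 506 and 702 CPM in the ATF4 libraries and 846, 655, 665 and 760.3 CPM in the CEBPG libraries. No knockout library overlapped the controls, the CHOP and ATF3 libraries overlapped each other, and so did the CEBPG and ATF4 libraries. The log2 change against control was 1.75 (SE 0.13, adjusted p = 5.43e-10) for ATF3, 1.87 (SE 0.13, adjusted p = 2.57e-10) for CHOP, 1.02 (SE 0.14, adjusted p = 2.39e-06) for CEBPG and 0.74 (SE 0.16, adjusted p = 0.00101) for ATF4. Without ATF4 replicate 3 the ATF4 change was 0.49 (adjusted p = 0.0781), with the spread of the lone library taken from the other groups.

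Gad2, the GABA enzyme of axon terminals, was higher in every knockout as well, and by more than Gad1 in each of the 4 fitted changes. It was 89.5, 55.7, 64.4 and 56.4 CPM in the controls, against 241 to 277 CPM in ATF3 and 256 to 389.9 CPM in CHOP. The CEBPG libraries lay at 184, 192, 217 and 170.4 CPM and the ATF4 libraries at 103 and 151 CPM. No knockout library overlapped the controls, and the order ran from CHOP and ATF3, which overlapped, through CEBPG and ATF4 to control. Against control Gad2 changed on the log2 scale by 2.27 (SE 0.15, adjusted p = 9.63e-11) for CHOP, 1.96 (SE 0.15, adjusted p = 6.09e-10) for ATF3, 1.52 (SE 0.15, adjusted p = 3.9e-08) for CEBPG and 0.93 (SE 0.18, adjusted p = 0.000343) for ATF4.

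Slc6a9, the glycine transporter that marks glycinergic amacrine cells and is also made by Müller glia, had the highest level per kilobase of exon among the 9 genes in every group. It was 628, 450.1, 639 and 406 CPM in the controls and 1869 and 1865 CPM in the ATF4 libraries. It was 1759, 1973, 2137, 2235 and 2373 CPM in CHOP and 1455, 1544, 1489, 1566 and 1541 CPM in ATF3. The CEBPG libraries were at 892, 537, 811 and 1047 CPM, and replicate 6 lay within the control range. ATF3, ATF4 and CHOP did not overlap the controls. The log2 change was 1.98 (SE 0.16, adjusted p = 1.28e-09) for CHOP, 1.81 (SE 0.19, adjusted p = 1.59e-07) for ATF4, 1.52 (SE 0.16, adjusted p = 6.2e-08) for ATF3 and 0.63 (SE 0.16, adjusted p = 0.00322) for CEBPG. With the first component of sequencing quality as a covariate the CEBPG change was 0.31 and no longer passed (adjusted p = 0.147). The ATF3 change was then 0.91 and still passed (adjusted p = 0.00677). On the opposite strand Ccdc24 overlaps 27.8% of the exonic length of Slc6a9, and the strand used in counting is not given. Ccdc24 went the other way, at 235 ± 50.9 CPM (SD, n = 4) in control, 47.5 ± 3.41 in ATF3 (SD, n = 5), 71.0 ± 1.23 in ATF4 (SD, n = 2), 31.0 ± 9.02 in CEBPG (SD, n = 4) and 74.6 ± 11.2 in CHOP (SD, n = 5). The summed share of 11 Müller glia markers was 0.609% to 0.967% in the controls, 1.16% to 1.33% in ATF3, 1.18% and 1.38% in ATF4, 0.854% to 1.06% in CEBPG and 0.635% to 0.778% in CHOP. Apoe, which other cells also make, was the most abundant of them (8434 CPM on average in ATF3, 3160 in CHOP and 3897 in control), and the single markers were mixed, with 2 higher and 5 lower in ATF3, 7 and 0 in ATF4, 2 and 7 in CEBPG and 1 and 6 in CHOP. The part of Müller glia in the Slc6a9 values was not tested.

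Slc32a1, the vesicular transporter, was low in control and highest with ATF4 knockout. It was 11.1, 9.72, 12.3 and 5.002 CPM in the controls and 41.5 and 105 CPM in the ATF4 libraries. It was 31.9, 26.5, 36.2, 37.0 and 33.2 CPM in CHOP and 23.4, 22.2, 23.0, 22.3 and 20.8 CPM in ATF3. The CEBPG libraries, at 22.0, 10.54, 12.6 and 19.1 CPM, overlapped the controls and the other groups did not. The log2 change was 2.94 (SE 0.33, adjusted p = 5.11e-07) for ATF4, 1.79 (SE 0.28, adjusted p = 2.06e-05) for CHOP and 1.23 (SE 0.27, adjusted p = 0.00116) for ATF3. Without ATF4 replicate 3 the ATF4 change was 2.12 (adjusted p = 0.000164), again with the spread taken from the other groups. The CEBPG change of 0.76 (SE 0.28, adjusted p = 0.0425) no longer passed without CEBPG replicate 10 (adjusted p = 0.147), CEBPG replicate 9 (0.0999), control replicate 5 (0.0848) or control replicate 8 (0.179), nor with the rod genes removed (0.0534). An antisense gene, Gm14205, overlaps 24.9% of the exonic length of Slc32a1 and is not among the counted genes.

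**Figure D3:**
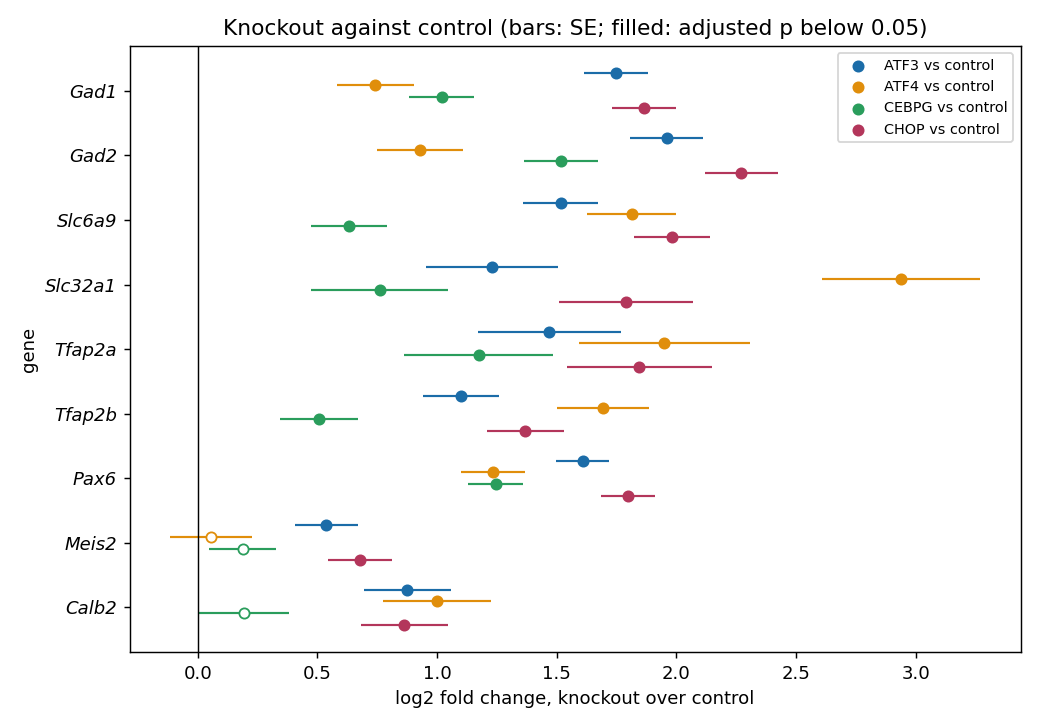
Log2 fold change of each gene, knockout over control (x axis), for the 4 knockouts, with bars for the SE and filled points for an adjusted p below 0.05. The open points are Meis2 in ATF4 and CEBPG and Calb2 in CEBPG, and the point farthest to the right is Slc32a1 in ATF4 at 2.94.

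Of the transcription factors, Pax6, Tfap2a and Tfap2b rose in all 4 knockouts and Meis2 in ATF3 and CHOP. Pax6 was 305, 222, 322 and 240.1 CPM in the controls, and it was 882, 775, 815, 853 and 827 CPM in ATF3. It was 1033, 867, 817, 983 and 1031 CPM in CHOP, 612 and 671 CPM in ATF4, and 597, 644, 635 and 709 CPM in CEBPG. Every knockout library was above every control, the CHOP and ATF3 libraries overlapped, and the CEBPG and ATF4 libraries overlapped below them. For Pax6 the log2 change was 1.80 (SE 0.11, adjusted p = 3.49e-11) for CHOP, 1.61 (SE 0.11, adjusted p = 1.08e-10) for ATF3, 1.25 (SE 0.11, adjusted p = 7.83e-09) for CEBPG and 1.24 (SE 0.13, adjusted p = 3.17e-07) for ATF4.

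Of the pair of AP-2 factors, Tfap2b had the higher level per kilobase of exon in every group. Tfap2b was 119, 96.4, 124 and 61.6 CPM in the controls and 382 and 266 CPM in the ATF4 libraries, with 231 to 287 CPM in CHOP, 204 to 232 CPM in ATF3 and 121 to 168 CPM in CEBPG. CEBPG overlapped the controls and the other knockouts did not. The log2 change of Tfap2b was 1.69 (SE 0.19, adjusted p = 6.45e-07) for ATF4, 1.37 (SE 0.16, adjusted p = 4.07e-07) for CHOP and 1.10 (SE 0.16, adjusted p = 8.73e-06) for ATF3. For CEBPG it was 0.51 (SE 0.16, adjusted p = 0.0198), which no longer passed without CEBPG replicate 9 (adjusted p = 0.0695), control replicate 5 (0.0623) or control replicate 8 (0.108, with the change at 0.30).

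Tfap2a was the lowest of the 9 genes, at 1.98, 4.86, 6.12 and 4.11 CPM in the controls. It was 17.4 and 15.5 CPM in ATF4, 13.7 to 18.4 CPM in CHOP, 9.09 to 13.3 CPM in ATF3 and 6.02 to 13.0 CPM in CEBPG. The lowest CEBPG library lay just under the highest control, and the other groups did not overlap the controls. The log2 change was 1.95 (SE 0.36, adjusted p = 0.0002) for ATF4, 1.85 (SE 0.30, adjusted p = 3.96e-05) for CHOP, 1.47 (SE 0.30, adjusted p = 0.000476) for ATF3 and 1.17 (SE 0.31, adjusted p = 0.00481) for CEBPG. In a fit of CEBPG and control alone the CEBPG change of Tfap2a no longer passed (adjusted p = 0.109). Nor did those of Slc32a1 (0.186) and Tfap2b (0.1155) in that fit. Its exons are overlapped on the opposite strand by Gm26688 over 7.75%, Gm47061 over 5.40% and Gm47067 over 1.49% of their length.

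Meis2 moved least. It was 94.99, 77.1, 70.2 and 114 CPM in the controls, 123, 137, 131, 134 and 120.3 CPM in ATF3 and 148, 142, 128, 141 and 153 CPM in CHOP. The ATF4 libraries were at 95.5 and 89.5 CPM and the CEBPG libraries at 122, 87.2, 85.4 and 110.4 CPM, within or around the control range. The log2 change was 0.54 (SE 0.13, adjusted p = 0.00279) for ATF3 and 0.68 (SE 0.13, adjusted p = 0.000314) for CHOP. It was 0.06 for ATF4 (95% interval -0.31 to 0.42, adjusted p = 0.848) and 0.19 for CEBPG (95% interval -0.11 to 0.48, adjusted p = 0.319), so neither passed the test.

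Calb2, or calretinin, split the knockouts. It was 224, 114, 208 and 115 CPM in the controls, which fell into a higher and a lower pair, and 335 and 327 CPM in ATF4. It was 328, 306, 291, 304 and 290.2 CPM in ATF3 and 252, 296, 295, 332 and 329.9 CPM in CHOP, all above every control. The CEBPG libraries were at 224, 141, 153 and 238 CPM and overlapped the controls. The log2 change was 1.0 (SE 0.22, adjusted p = 0.0014) for ATF4, 0.88 (SE 0.18, adjusted p = 0.000576) for ATF3 and 0.86 (SE 0.18, adjusted p = 0.000647) for CHOP. For CEBPG it was 0.19 (SE 0.19, 95% interval -0.21 to 0.59, adjusted p = 0.469). With the first component of sequencing quality as a covariate the ATF3 and CHOP changes of Calb2 (0.21 and 0.35) and of Meis2 (0.26 and 0.46) and the ATF3 change of Slc32a1 (0.77) no longer passed. Nor did the CEBPG changes of Slc6a9 (0.31), Slc32a1 (0.51) and Tfap2b (0.37).

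Per kilobase of exon the order of the first 4 genes was the same in all 5 groups, Slc6a9, Calb2, Gad1 and Pax6, and Tfap2a was last in all of them. In the controls the mean level was 103 ± 23.4 CPM per kb (SD, n = 4) for Slc6a9, 94.8 ± 33.9 for Calb2, 47.2 ± 11.1 for Gad1, 23.3 ± 4.17 for Pax6 and 0.870 ± 0.354 for Tfap2a. In CHOP it was 408 ± 46.3 CPM per kb (SD, n = 5) for Slc6a9, 173 ± 18.6 for Calb2, 172 ± 16.3 for Gad1, 80.9 ± 8.45 for Pax6 and 3.12 ± 0.391 for Tfap2a. Neighbours in these orders were not all apart, since Slc6a9 and Calb2 differed by less than their spread in the controls, as did Calb2 and Gad1 in CHOP. Slc32a1 was 8th in control, ATF3, CEBPG and CHOP and 6th in ATF4, at 26.2 ± 16.0 CPM per kb (SD, n = 2).

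The comparisons among the ATF3, CEBPG and CHOP knockouts lie within batch 3 and female mice. CEBPG was below ATF3 for 6 of the 9 genes by the edgeR test and above it for none, with 10.1% of all genes called lower, and every CEBPG library was below every ATF3 library for 6 of the 9, against 11.2% of all genes. CHOP was above CEBPG for 8 of the 9 genes, with 13.2% of all genes called higher, and every CHOP library was above every CEBPG library for all 9, against 9.92% of all genes. Each of these 3 groups enters 2 of the comparisons, so they too share libraries. The median log2 change of the 9 genes was -0.47 for CEBPG over ATF3, 0.76 for CHOP over CEBPG and 0.27 for CHOP over ATF3, beside 0.00, 0.03 and 0.01 for all genes. Markers of other cells moved in the same comparisons. All 7 lymphocyte markers were higher in CEBPG than in ATF3 and in CHOP, with a summed share of 0.1002% to 0.1596% in CEBPG, 0.0194% to 0.0235% in ATF3 and 0.0214% to 0.0327% in CHOP. Of the 11 bipolar cell markers 9 were lower in CEBPG than in ATF3 and 10 lower in CHOP than in ATF3, with shares of 0.0520% to 0.0830% in CEBPG, 0.168% to 0.190% in ATF3 and 0.0674% to 0.0944% in CHOP. Of the 9 cone markers 4 were lower in CEBPG than in ATF3, with shares of 0.0988% to 0.146% against 0.151% to 0.181%, and of the 11 Müller glia markers 7 were lower. The part of these cells in the differences of the 9 genes was not tested.

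The largest of the differences between CEBPG and ATF3 was that of Slc6a9, which was 0.89 lower on the log2 scale in CEBPG (SE 0.15, adjusted p = 0.000184). Gad1 was lower by 0.73 (SE 0.13, adjusted p = 0.000253), Calb2 by 0.68 (SE 0.18, adjusted p = 0.00852) and Tfap2b by 0.59 (SE 0.16, adjusted p = 0.00832). These 4 calls held when any single library was left out. With the first component of sequencing quality as a covariate Calb2 (adjusted p = 0.266) and Tfap2b (0.136) no longer passed, nor did they with CEBPG replicates 6 and 8 both left out (0.212 and 0.155). Gad2 was lower by 0.44 (SE 0.14, adjusted p = 0.0293), but not past the threshold without ATF3 replicate 7 (adjusted p = 0.0545), ATF3 replicate 8 (0.0632), CEBPG replicate 10 (0.0602), CEBPG replicate 6 (0.0515) or CEBPG replicate 9 (0.0787). Pax6 was lower by 0.36 (SE 0.11, adjusted p = 0.0183), and not past it without CEBPG replicate 10 (adjusted p = 0.0524) or without both CEBPG replicates 6 and 8 (0.0974). With the quality covariate neither Gad2 (adjusted p = 0.0844) nor Pax6 (0.129) passed. Meis2 differed by -0.35 (SE 0.13, adjusted p = 0.0629) and passed without CEBPG replicate 10 (adjusted p = 0.0231) or in a fit of batch 3 alone (0.0278). Slc32a1 (-0.47, 95% interval -1.03 to 0.09) and Tfap2a (-0.30, 95% interval -0.90 to 0.31) did not pass.

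CHOP was above CEBPG by 1.35 on the log2 scale for Slc6a9 (SE 0.15, adjusted p = 9.02e-07), 1.03 for Slc32a1 (SE 0.27, adjusted p = 0.0056), 0.86 for Tfap2b (SE 0.16, adjusted p = 0.00025) and 0.85 for Gad1 (SE 0.13, adjusted p = 3.35e-05). The differences were smaller for Gad2 at 0.75 (adjusted p = 0.000376), Calb2 at 0.67 (adjusted p = 0.00756), Pax6 at 0.55 (adjusted p = 0.000515) and Meis2 at 0.49 (adjusted p = 0.00761). Tfap2a, at 0.67 (SE 0.28, adjusted p = 0.0853), did not pass, and did so without CEBPG replicate 6 (adjusted p = 0.045) or in a fit of batch 3 alone (0.0452). With both CEBPG replicates 6 and 8 left out, an alternative chosen after seeing the data, 5 of the 9 genes passed for CHOP over CEBPG and 3 for CEBPG below ATF3.

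CHOP and ATF3 were not told apart by this test, in which 0 of the 9 genes passed in edgeR and 0.756% of all genes were called higher in CHOP. At an unadjusted p below 0.05 there were 3, Gad2, Slc6a9 and Slc32a1, and DESeq2 called 1, Slc6a9. The shares of all genes at that unadjusted threshold and with DESeq2 are not given here, so these counts have no background beside them. The difference for Slc6a9 was 0.46 (SE 0.14, 95% interval 0.16 to 0.77, adjusted p = 0.0939), for Slc32a1 0.56 (95% interval 0.04 to 1.08, adjusted p = 0.312) and for Gad2 0.31 (95% interval 0.03 to 0.60, adjusted p = 0.297). Every CHOP library was above every ATF3 library for 3 of the 9 genes, Slc6a9, Slc32a1 and Tfap2a, against 3.6% of all genes. For Gad1 the difference was 0.12 (95% interval -0.14 to 0.38, adjusted p = 0.805) and for Calb2 -0.01 (95% interval -0.37 to 0.34, adjusted p = 0.993). The intervals bound these differences and do not show that the knockouts act alike. Of the 14 rod markers 9 were higher in CHOP than in ATF3, and the part of that difference in these values was not tested.

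**Figure D4:**
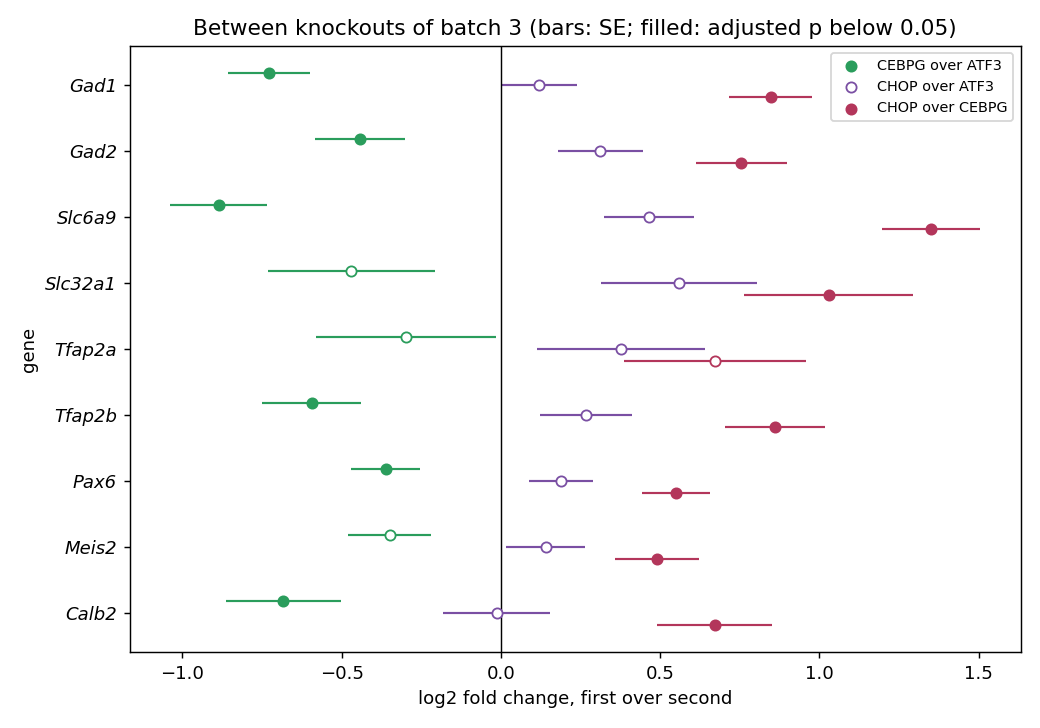
Log2 fold change of each gene between pairs of the knockouts of batch 3 (x axis, first group over second), with bars for the SE and filled points for an adjusted p below 0.05. CEBPG over ATF3 lies left of 0 for all 9 genes, CHOP over CEBPG lies right of 0 for all 9, and all 9 points of CHOP over ATF3 are open.

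Ratios of read counts within a library do not depend on how libraries are scaled. They were chosen after the levels had been seen, and 16 exact two-sided permutation tests of knockout against control were adjusted together. The ratio of Gad2 to Gad1 was 0.179 to 0.188 in the 4 controls, and it was higher in every library of ATF3 (0.204 to 0.226), ATF4 (0.204 and 0.215), CEBPG (0.218 to 0.326) and CHOP (0.218 to 0.267). For ATF3 and for CHOP the exact permutation p was 0.00794, the smallest that 5 against 4 libraries allow (adjusted p = 0.0423). For CEBPG it was 0.0286 and for ATF4 0.0667, again the smallest possible by the exact permutation test (adjusted p = 0.114 and 0.152).

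The ATF4 libraries stood apart in the balance of transporters to enzyme. The ratio of Slc6a9 to Gad1 was 3.70 and 2.66 in ATF4, 1.31 to 1.78 in control, 1.22 to 1.28 in ATF3, 0.819 to 1.38 in CEBPG and 1.21 to 1.83 in CHOP. Slc32a1 to Gad1 was 0.0820 and 0.149 in ATF4, 0.0164 to 0.0343 in control, 0.0164 to 0.0202 in ATF3, 0.0161 to 0.0260 in CEBPG and 0.0206 to 0.0309 in CHOP. Both ATF4 libraries were above every other library of the labelled groups on both ratios, but 2 against 4 libraries cannot reach an exact permutation p below 0.0667, which both had (adjusted p = 0.152). The ATF3 ratio of Slc6a9 to Gad1 was below every control (exact permutation p = 0.00794, adjusted p = 0.0423), and the CEBPG (exact permutation p = 0.0857) and CHOP (0.46) ratios overlapped the controls. Tfap2b to Tfap2a was 15 to 60.3 in the controls and 9.85 to 25.6 over the knockout libraries, with no exact permutation p below 0.16.

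**Figure D5:**
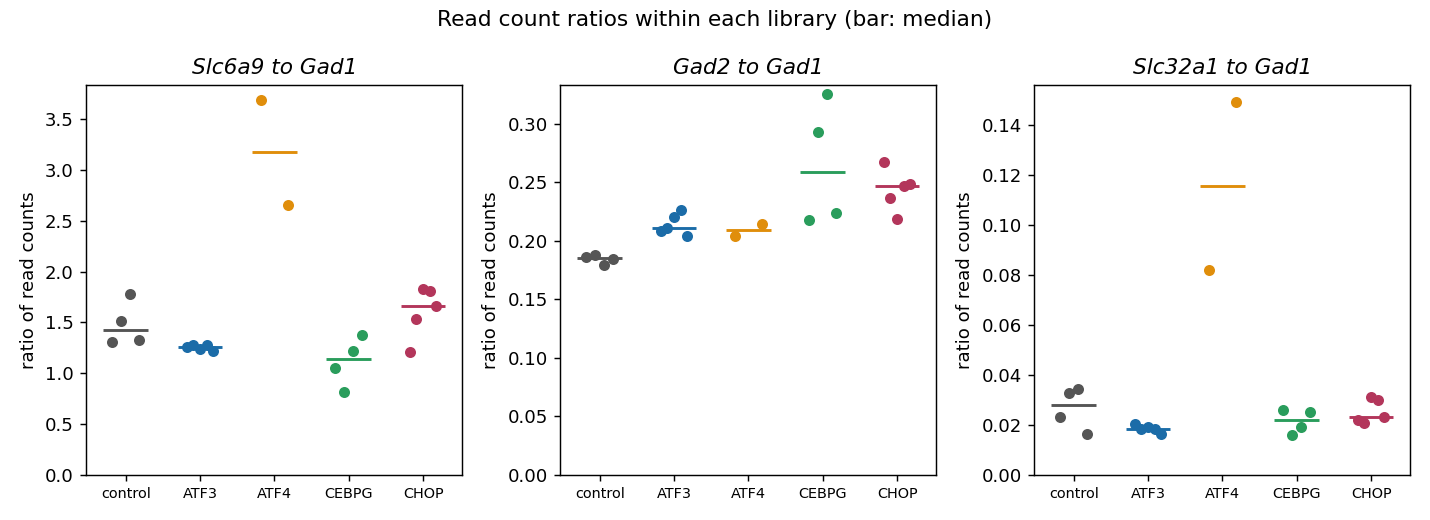
Ratio of read counts within each library (y axis, from 0) for Slc6a9 to Gad1, Gad2 to Gad1 and Slc32a1 to Gad1, by group, with a bar for the median. The ATF4 points of the outer panels (2.66 and 3.70, 0.0820 and 0.149) are above all other libraries of the labelled groups, and in the middle panel every knockout library is above the controls (0.179 to 0.188).

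Other genes that handle GABA and glycine were counted in a list of 13. With CHOP knockout 9 were higher and none lower (median log2 change 1.26), with ATF3 7 and none (0.66), with ATF4 7 and 1 (0.68) and with CEBPG 5 and 1 (0.11), beside medians of 0.01, 0.06, 0.00 and 0.06 over all genes. The shares of all genes called higher were 18.1%, 18.6%, 16.6% and 18.3% in that order, and 15.4%, 14.8%, 14.6% and 15% were called lower. Abat, the transaminase that breaks down GABA, rose by 1.52 with ATF3, 0.86 with CEBPG and 1.71 with CHOP. Slc6a11, the GABA transporter GAT3, rose by 1.42 with ATF3, 0.71 with ATF4, 0.52 with CEBPG and 1.61 with CHOP. Slc6a5, the neuronal glycine transporter GLYT2, averaged 4.08 CPM in control and rose by 1.502 with ATF3, 1.64 with CEBPG and 2.00 with CHOP, and its change of 0.67 with ATF4 did not pass (adjusted p = 0.183).

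Receptors for the same transmitters were counted in a list of 21. With ATF3 knockout 18 were higher and none lower (median log2 change 1.49), with CHOP 15 and 1 (1.24), with CEBPG 9 and 4 (0.67) and with ATF4 8 and none (0.49). Of all genes 18.6%, 18.1%, 18.3% and 16.6% were called higher in that order and 14.8%, 15.4%, 15% and 14.6% lower, with medians of 0.06, 0.01, 0.06 and 0.00. Gabbr2, of the GABA-B receptor, rose by 1.26 with ATF3, 0.80 with CEBPG and 1.44 with CHOP, and the glycine receptor subunit Glra2 rose by 1.79, 1.23 and 2.27 in that order and by 0.92 with ATF4. The rho subunit Gabrr2, which is typical of bipolar cells, went the other way in CEBPG (log2 change -1.07, adjusted p = 0.000881) and CHOP (-1.16, adjusted p = 0.000188). The bipolar cell markers moved with it, with a summed share of 0.130% to 0.187% in control, 0.0520% to 0.0830% in CEBPG and 0.0674% to 0.0944% in CHOP, and their part in the change was not tested.

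Of 18 further amacrine transcription factors 16 were counted. There were 12 higher and 1 lower with ATF3, 9 and 1 with ATF4, 7 and 2 with CEBPG and 11 and 2 with CHOP, with medians of 1.27, 1.32, 0.73 and 1.56. Of all genes 18.6%, 16.6%, 18.3% and 18.1% were called higher and 14.8%, 14.6%, 15% and 15.4% lower. Tfap2c, the third AP-2 factor of the list, was at 39.6 CPM on average in control and rose by 2.35 with ATF3 (SE 0.16), 1.74 with ATF4 (SE 0.19), 1.59 with CEBPG (SE 0.16) and 2.64 with CHOP (SE 0.16). Barhl2, a homeodomain factor of amacrine and ganglion cells, rose by 2.02, 1.82, 1.38 and 2.19 in the same order, and Bhlhe22, a factor of some amacrine and bipolar cells, by 1.22, 1.59, 1.195 and 1.81. Neurod2 averaged 13.5 CPM in control and rose by 0.85 with ATF3, 2.14 with ATF4 and 0.77 with CEBPG, and its change of 0.53 with CHOP did not pass (adjusted p = 0.063). Ebf3 averaged 4.09 CPM in control and rose by 2.17, 2.03, 1.33 and 3.06 in the order ATF3, ATF4, CEBPG and CHOP. Those that fell were Sox2 with ATF3, CEBPG and CHOP (log2 change -1.40, -2.13 and -1.14), Isl1, found in ganglion, bipolar and starburst amacrine cells, with CEBPG and CHOP (-1.42 and -1.84), and Meis1 with ATF4 (-0.54).

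Transmitters and markers of amacrine subtypes formed a list of 19, of which 7 were higher with ATF3, 7 with ATF4, 4 with CEBPG and 6 with CHOP, with 1 lower in CEBPG. Beside the 18.6%, 16.6%, 18.3% and 18.1% of all genes called higher and 15% called lower in CEBPG, the count of 4 higher in CEBPG is near the background. Vip, the peptide of VIP amacrine cells, was at 1.25 CPM on average in control, 29.5 CPM in ATF3 (log2 change 4.55, SE 0.50), 19.2 CPM in CHOP (3.93, SE 0.49), 8.63 CPM in CEBPG (2.77, SE 0.49) and 4.93 CPM in ATF4 (1.97, SE 0.56). C1ql1 and C1ql2, which encode secreted C1q-like proteins, rose in all 4 knockouts, C1ql1 by 0.74 with CEBPG to 2.06 with ATF4 and C1ql2 by 0.85 with CEBPG to 1.86 with CHOP. Npy rose with ATF4, from 6.62 to 19.2 CPM (log2 change 1.53, SE 0.42). The gene lower in CEBPG was Slc18a3, the vesicular acetylcholine transporter of starburst cells, at 1.77 CPM on average in control and at 0 in every CEBPG library. It had only 7 to 29 reads in the controls. Chat and Slc5a7, the other acetylcholine genes of the list, were not called in CEBPG. Chat averaged 3.71 CPM in control and 1.51 in CEBPG, and Slc5a7 1.17 and 1.14.

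Between the knockouts of batch 3 the 4 lists were called as follows. In CEBPG against ATF3, 5 of 13 handling genes, 13 of 21 receptors, 7 of 16 factors and 8 of 19 subtype genes were lower and none was higher, beside 10.1% of all genes lower and 10.2% higher. In CHOP against CEBPG, 8, 14, 9 and 6 were higher and none was lower, beside 13.2% higher and 13.5% lower. In CHOP against ATF3 3 of 21 receptors, Gabrr1 and Gabrr2 among them, the factors Neurod4 and Isl1 and the peptide Cck were lower in CHOP, C1ql1 was higher (log2 change 0.57, adjusted p = 0.0259), and none of the 13 handling genes passed, beside 1.51% of all genes lower and 0.756% higher.

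The levels of the 9 genes were compared with those of all other genes that averaged 5 CPM or more. The measure was the Pearson correlation with the mean of the 9 standardized log2 levels, given as a description over libraries that share groups, batches and depth. Over 20 libraries the 8 most alike were Tkt (r = 0.988), Celf4 (0.985), Pfkm (0.985), C1ql2 (0.985), Hpca (0.983), Lhfp (0.979), Chn1os3 (0.978) and Sparcl1 (0.977). Over the 14 libraries of batch 3 the 8 most alike included Kirrel3 (0.980), Sparcl1 (0.980), Prdm13 (0.979), Clstn1 (0.978), Ncam1 (0.975), Tkt (0.975) and Slc12a5 (0.974), and Tkt and Sparcl1 were in both sets. Prdm13, a factor of amacrine development, was higher by 3.20 in CHOP than in control (SE 0.19, adjusted p = 1.71e-11) and lower by 1.53 in CEBPG than in ATF3 (log2 change -1.53, SE 0.17, adjusted p = 1.13e-06). Among the 9 genes themselves, the 36 pairs had a median r of 0.76 over the 20 libraries, from 0.36 for Slc32a1 with Meis2 to 0.97 for Gad1 with Gad2. Once each group's mean was taken out, the median fell to 0.29 with a range from -0.67 to 0.88, so most of the likeness lay between the groups.

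The authors' deposited table of fold changes gives all 9 genes above 0 in each knockout. Of the 9, 8 had in the authors' deposited table an FDR below 0.05 with ATF3, CEBPG and CHOP, Meis2 being the exception, and 3 with ATF4, which were Slc6a9, Slc32a1 and Pax6. Over all genes, the authors' deposited table calls 5.24%, 11.8%, 5.04% and 2.14% higher in the order ATF3, CEBPG, CHOP and ATF4. For Gad1 the authors' deposited table lists 3.26 with ATF3, 0.79 with ATF4, 2.20 with CEBPG and 3.44 with CHOP, where the fit used here gave 1.75, 0.74, 1.02 and 1.87. The reference group, the log base and the model behind the authors' values are stated in none of the sources used here.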

How the data were processed

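RNA of sorted cells was sequenced from SMART-Seq v4 libraries, per the labels' protocols. The submitters' processing notes name STAR, Picard, HTSeq, edgeR and the build mm10 and no versions, and the sources used here do not give the annotation, the strand or the settings of counting. The authors deposited a table of raw counts, with 17164 genes in rows and 21 libraries in columns. Another table deposited by the authors holds log fold changes, read as log2 although no base is stated, with p-values and FDR. The authors' sample sheet gives batch, sex, age and a score per library on components of sequencing quality, and 37 further columns of values in it were not used.

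Groups follow the titles. The labels do not say that a group's libraries are separate animals, and p-values then measure only the spread between libraries, which may be technical. Within groups, 33 pairs of libraries differed by more than counting noise (chi-square per gene 12.9 to 64.6, over genes with at least 20 reads), so none was a copy.

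The tests were run with edgeR 4.0.16 under R 4.3.3. After filterByExpr at a minimum count of 10, libraries were scaled by TMM, and 20 libraries entered a single robust quasi-likelihood fit with 15 residual degrees of freedom. Each comparison was a contrast, with Benjamini-Hochberg adjustment over 16797 genes and a threshold of 0.05. Every adjusted p of a gene is from this edgeR test unless another is named. CPM use the TMM factors, and levels between genes are compared as CPM per kb of merged exons. Intervals of fold changes use the SE and 15 degrees of freedom. The fit was tested on simulated counts with changes put into genes drawn from all those tested. At a log2 change of 1 it recovered from 32% of them (ATF4 against control) to 58% (CEBPG against ATF3). At a log2 change of 2 it recovered 69% to 77%, so a gene that did not pass may still differ. DESeq2 1.42.0, other scalings, no filter, fewer groups, a replicate block, a quality covariate, placing the library with contradictory labels, and leaving out libraries were alternatives. Leaving out CEBPG replicates 6 and 8 together, removing rod genes and fitting batch 3 alone were added after seeing the data.

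The 9 genes and the lists were chosen with earlier results of these data known. All 9 genes are named, and from each list at most 4 called genes per direction and comparison by adjusted p, of which the text gives a part. Some genes that these rules name are not reported here. Ratios and overlaps were added later.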

Additional observations from a re-analysis of the deposited data

How the results depend on the processing

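Each of the 63 gene and comparison pairs kept its direction and its side of the threshold with RLE size factors and with no filter on low counts. With DESeq2 and with library totals alone 62 did, and the number called in CHOP against ATF3 went from 0 to 1 with DESeq2. With only the 2 groups compared in the fit it went from 0 to 3, and that of CEBPG against control from 7 to 4. With the first component of sequencing quality as a covariate, CEBPG against control went from 7 to 4, CEBPG against ATF3 from 6 to 2 and CHOP against ATF3 from 0 to 1, and Calb2 reversed in CEBPG against control (-0.14) and in CHOP against ATF3 (0.14). With CEBPG replicates 6 and 8 both left out, CEBPG against ATF3 went from 6 to 3 and CHOP against CEBPG from 8 to 5. With the contradictory library placed in CHOP, CHOP against CEBPG went from 8 to 1, and Gad1 (-0.13) and Pax6 (-0.036) reversed in CHOP against ATF3. With rod genes removed, Calb2 in CHOP against ATF3 was 0.006. Leaving out 1 library at a time, the number of genes called moved by no more than 1.5 times in any comparison. Calb2 in CHOP against ATF3 ranged from -0.061 to 0.035 and Meis2 in ATF4 against control from -0.056 to 0.153. The cause of these changes was not tested.

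With a replicate block, the number called was 5 in ATF4 against control, 3 in CEBPG against control, 3 in CEBPG against ATF3 and 1 in CHOP against CEBPG, and Meis2 in CEBPG against control was -0.034. The replicate numbers do not pair the libraries. Over 12 same-numbered pairs the correlation of deviations from the group means was -0.048 to 0.026, and 0 pairs were over 0.1. Tfap2a and Slc32a1 have few reads, which limits their precision. No value of the 9 genes in the 36 gene and group sets with 4 or 5 libraries lay apart by Dixon's criterion.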

Other observations

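The library titled as a control but labelled with the CHOP knockout genotype, which entered no comparison, came from a male mouse and batch 4 and had 33665965 counted reads. Scaled together with the other libraries, it lay below every control for 7 of the 9 genes, within the control range for 2 (Slc6a9 and Tfap2b) and above every control for 0. The share of all genes that lay below every control in it is not given here, so these counts have no background beside them. Gad1 was at 73.6 CPM in it, against 296 to 480.0 CPM in the controls on the same scale. Gad2 was at 11.5 CPM (controls 55.6 to 89.3), Pax6 at 131 CPM (221 to 321) and Calb2 at 49.5 CPM (114 to 224). Slc6a9 was at 456 CPM (405 to 638), so its ratio to Gad1 was 6.20, above all 20 libraries of the labelled groups, and the 9 genes together held 0.0828% of its counted reads. Markers of other cells stood apart in it too, with cone markers at 1.12% (controls 0.302% to 0.425%), bipolar cell markers at 0.315% (0.130% to 0.187%) and microglia markers at 1.18% of counted reads (0.395% to 0.625%).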
